A study of Mus musculus with 103 samples.

Results

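The genes described here are 9 snoRNA host genes of the mouse, Snhg1, Snhg3, Snhg5, Snhg6, Snhg7, Snhg8, Snhg11, Snhg12 and Gas5, taken by symbol from 23339 rows of polyadenylated RNA-seq and from 20282 rows of global run-on sequencing (GRO-seq). Each of the 9 had a row in every table. Their identifiers in the RNA-seq table are NR_002840 (Gas5), NR_002896 (Snhg1), NR_003270 (Snhg3), NR_040721 (Snhg5), NR_024067 (Snhg6), NR_024068 (Snhg7), NR_028574 (Snhg8), NM_175692 (Snhg11) and NR_029468 (Snhg12). The study asked how gene expression and chromatin in resting fibroblasts depend on CTCF, on cohesin and on Wapl, the factor that releases cohesin from DNA. The cells were C57BL/6 mouse embryonic fibroblasts from E13.5 embryos, described as quiescent and labelled as kept resting for 10 d. The series lists 103 samples, of which 29 are RNA-seq and 10 are GRO-seq.

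The groups were as follows. Smc3, a core subunit of cohesin, was deleted by 2 to 3 d of hydroxytamoxifen in Rosa26(CreER/+) cells (4 treated and 4 untreated libraries). Clone 1 was Smc3(fl/fl) and clones 2, 3 and 4 were Smc3(fl/-). Wapl was deleted in the same way in Rosa26(CreER/+) Wapl(fl/-) cells (2 treated, 2 untreated), so the untreated cells already lacked 1 Wapl allele. Ctcf was deleted in Ctcf(fl/fl) cells with Adeno-Cre, an adenovirus carrying Cre that was left on the cells for 4 h (2 treated, 2 untreated). Ctcf(fl/fl) Wapl(fl/fl) cells received the same virus (1 treated library, clone 4, and 2 untreated, clones 3 and 4). Wild-type cells with Adeno-Cre (2 treated, 2 untreated) and Rosa26(CreER/+) cells without a floxed gene (2 with hydroxytamoxifen, 2 untreated) were the controls for the virus and for the drug. The labels call the replicates of a group clones, and treated and untreated cells of the same number are the same clone. GRO-seq values came from Ctcf(fl/fl) Wapl(fl/fl) cells, with Adeno-Cre or untreated (clones 1 and 2 pooled in each column). To Adeno-Cre cells, DRB was added for 3.5 h (1 library), or DRB for 3.5 h followed by 1 d without it (1 library). A further pooled GRO-seq column was labelled wild-type, with no source libraries given.

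Small nucleolar RNAs (snoRNAs) guide ribose methylation and pseudouridylation of ribosomal RNA. Most vertebrate snoRNAs are cut from introns, and the host RNA left after splicing is here listed as noncoding (NR identifiers), except that of Snhg11, whose NM identifier is of the class for mRNA. The exon RNA of several hosts is translated over short reading frames and removed by nonsense-mediated decay, so that a gene can be transcribed at a high rate and leave little stable RNA. Gas5 is named for growth arrest, in which its spliced RNA accumulates as translation slows. DRB inhibits the kinase that releases paused RNA polymerase II into elongation. By the RefSeq gene table, 30 snoRNA genes lie within the 9 hosts, from 8 each in Snhg1 and Gas5 and 4 in Snhg12 to 1 each in Snhg6 and Snhg8.

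RefSeq promoter windows (GRCm38.p6) matched 8 of the 9 members by symbol. They are shown because the letters TATA recur near their annotated starts. Hosts that hold these letters include Snhg1, Snhg3 and Snhg7, for which the tests on group means below called no fall. The part of the letters in any change below was not tested. Each window runs from 60 bases before the start to 50 bases after its first base, 110 bases in all, and capitals mark TATA, which reads the same on both strands. The letters were present in the windows of 7 of the 8 matched members (7 of their 9 windows), and in 15.0% of all 32851 promoter windows of the same length. They began at position -32 in Snhg12, -30 in Snhg8 and Snhg7, -29 in the downstream one of the 2 Gas5 windows, -27 in Snhg1, -23 in Snhg5 and 23 in Snhg3. The window of Snhg11 and the upstream window of Gas5 held none. A run of 6 or more C or T, in any order, was found on the sense strand in 6 of the 8 members and in 71.3% of all windows, and a run of 6 or more A or G, its form on the other strand, in 6 of the 8 and in 73.8%. These are matches of letters, not mapped sites. The windows lie at chr3:123508287-123508396 on the minus strand for Snhg8, chr4:132308618-132308727 on the plus strand for Snhg12 and chr1:161035106-161035215 on the plus strand for Gas5. The others are chr9:88522848-88522957 (minus, Snhg5), chr19:8723427-8723536 (plus, Snhg1), chr2:26640195-26640304 (minus, Snhg7), chr4:132353637-132353746 (minus, Snhg3) and chr2:158375653-158375762 (plus, Snhg11).
Snhg8: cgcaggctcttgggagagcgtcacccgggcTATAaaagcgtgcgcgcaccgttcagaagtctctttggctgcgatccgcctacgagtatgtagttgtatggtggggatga
Snhg12: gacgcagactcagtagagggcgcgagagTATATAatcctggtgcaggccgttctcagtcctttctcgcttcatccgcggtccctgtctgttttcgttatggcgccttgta
Gas5: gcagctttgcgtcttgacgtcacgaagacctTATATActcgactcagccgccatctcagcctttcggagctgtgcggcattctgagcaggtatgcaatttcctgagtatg
Snhg5: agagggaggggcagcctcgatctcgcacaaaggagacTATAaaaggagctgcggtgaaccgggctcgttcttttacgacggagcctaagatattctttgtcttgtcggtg
Snhg1: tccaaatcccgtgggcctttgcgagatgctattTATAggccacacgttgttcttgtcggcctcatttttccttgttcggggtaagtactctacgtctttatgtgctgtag
Snhg7: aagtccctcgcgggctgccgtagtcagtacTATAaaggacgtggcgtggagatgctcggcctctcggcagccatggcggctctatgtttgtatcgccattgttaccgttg
Snhg3: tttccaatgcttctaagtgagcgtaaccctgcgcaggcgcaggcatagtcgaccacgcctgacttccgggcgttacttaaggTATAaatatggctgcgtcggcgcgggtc
Snhg11: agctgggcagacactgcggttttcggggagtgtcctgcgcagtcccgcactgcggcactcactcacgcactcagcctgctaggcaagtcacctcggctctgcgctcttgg

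The RNA-seq values are RPKM, reads scaled to transcript length and library size, and the 27 libraries of the large table differed in depth: for a transcript of 1000 bases, 1 RPKM stood for 8.5 to 41.1 reads. The labelled cell type matched its markers: the summed level of 10 fibroblast markers was 9530 to 18410 RPKM in every library, while 8 macrophage markers summed to 19.2 to 2475 RPKM. Muscle markers summed to 6.46 to 638 RPKM, neural to 3.40 to 158 RPKM, endothelial to at most 49.6 RPKM and epithelial to at most 35.8 RPKM. The muscle sums were 126 and 638 RPKM in untreated wild-type clones, 57.8 and 433 RPKM in untreated Ctcf clones, and 9.24 and 9.99 RPKM in untreated Wapl clones. Among the targeted genes, Ctcf averaged 4.14 RPKM in Ctcf-deleted cells against 12.4 RPKM untreated, and Wapl, listed as Wapal, averaged 0.847 RPKM in Wapl-deleted cells against 1.64 RPKM untreated. In the cells with both genes floxed, Ctcf was 3.76 RPKM and Wapal 1.52 RPKM after Adeno-Cre, against 10.9 and 3.32 RPKM untreated. The RNA of Smc3 averaged 11.6 RPKM in libraries with the label of Smc3 deletion and 9.53 RPKM in untreated ones, so it was not lower there and its level does not check those labels.

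In polyadenylated RNA the 9 hosts spanned a wide range of levels. Snhg12 had a median over the 27 libraries of 34.1 RPKM (12.0 to 65.3), at a median percentile of 90.8 among all rows. Gas5 had a median of 22.0 RPKM (2.58 to 50.3), Snhg6 20.9 RPKM (8.03 to 99.6) and Snhg8 17.5 RPKM (9.73 to 32.5). Snhg5 was lower, at 5.24 RPKM (2.45 to 9.47). Snhg7 (1.99 RPKM, 0.828 to 4.50), Snhg3 (1.63 RPKM, 0.533 to 6.36) and Snhg1 (1.39 RPKM, 0.256 to 3.79) lay near the middle of all rows, although Snhg1 hosts as many snoRNAs as Gas5. The ranges of Snhg12, Gas5, Snhg6 and Snhg8 overlapped, as did those of Snhg7, Snhg3 and Snhg1. The order also depended on the genotype: Gas5 averaged 24.8 RPKM and Snhg12 14.0 RPKM in Smc3-deleted cells, and Snhg6 averaged 42.1 RPKM and Snhg12 35.3 RPKM in untreated wild-type cells. Snhg11 did not reach 1 RPKM in any library (0.0332 to 0.540 RPKM, 3 to 76 reads) and was the 1 member that failed the filter on low values. The other 8 passed the filter, which kept 12604 genes with at least 1 RPKM in at least 2 libraries.

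**Figure D1:**
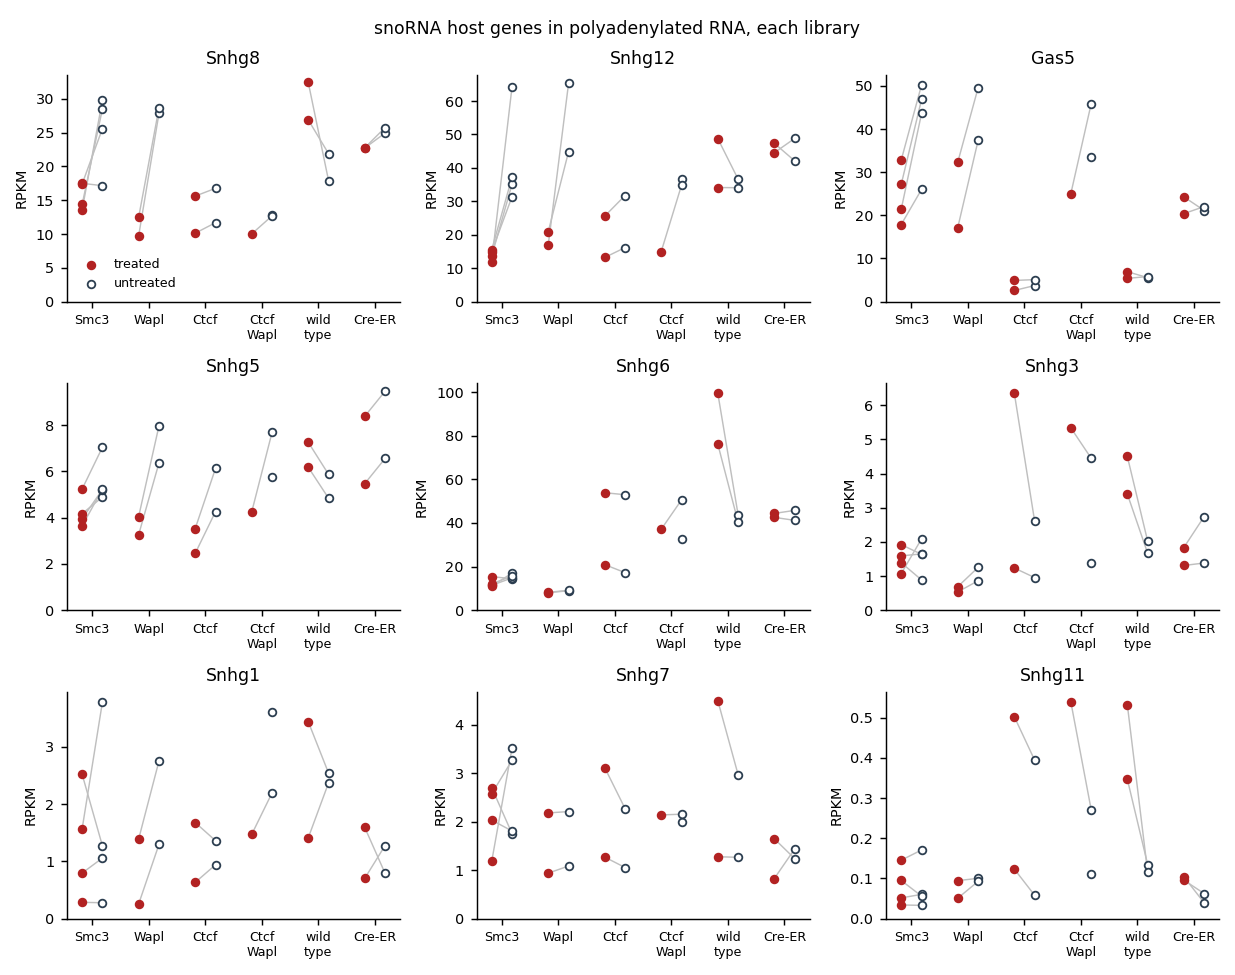
RPKM of each of the 9 host genes (vertical axes, starting at 0) in each of the 27 libraries, by genotype, with treated libraries as filled red points left of untreated libraries as open points; grey lines join the same clone. Snhg12 in Smc3-deleted cells sits between 12.0 and 15.5 RPKM, below every untreated Smc3 library (31.4 to 64.3 RPKM).

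Untreated cells of the 6 genotypes already differed in 3 of the 8 hosts tested (Gas5, Snhg6 and Snhg8), by an F test in a limma model over all genes with adjusted p under 0.05. Of all genes, 44.8% passed the same test, so a share of 3 in 8 is near the background. Gas5 had the widest spread. Untreated Wapl clones had 37.4 and 49.6 RPKM, untreated Smc3 clones 26.0, 43.7, 46.9 and 50.3 RPKM, untreated Ctcf Wapl clones 33.6 and 45.8 RPKM, and untreated Cre-ER clones 21.1 and 22.0 RPKM. Untreated wild-type cells had 5.55 and 5.81 RPKM and untreated Ctcf clones 3.72 and 5.10 RPKM, and no library of these 2 genotypes reached the level of any other. The highest genotype mean of Gas5 was 9.85-fold the lowest (limma F test, adjusted p = 3.65e-07). Snhg6, host of 1 box C/D snoRNA, ran in another order, with 8.88 and 9.14 RPKM in untreated Wapl clones and 14.4 to 17.0 RPKM in untreated Smc3 clones. It was at 41.2 and 45.8 RPKM in untreated Cre-ER cells and at 40.4 and 43.7 RPKM in untreated wild-type cells (4.82-fold from lowest to highest mean, limma F test, adjusted p = 0.0003279). The 2 untreated Ctcf clones were far apart for Snhg6, at 17.2 and 53.0 RPKM. Snhg8 ranged from a mean of 12.7 RPKM in untreated Ctcf Wapl cells to 28.3 RPKM in untreated Wapl cells (limma F test, adjusted p = 0.001937). Genotype and clone cannot be told apart in these values. Snhg6 overlaps Mcmdc2, and Gas5 overlaps Zbtb37, in the RefSeq table; whether counting used strand is not given in the sources used here.

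After loss of Smc3, 3 of the 8 hosts fell, Snhg12, Snhg8 and Gas5, and the log2 fold change was below 0 for all 8, also with rescaling and with the trend on transcript length removed. In this comparison 5.60% of all genes tested fell. The median log2 fold change of the 8 hosts was -0.31, against 0.07 for all genes. Snhg12, host of 4 snoRNAs of both the box C/D and box H/ACA classes, had 12.0, 13.6, 15.5 and 15.0 RPKM in Smc3-deleted clones 1 to 4, against 64.3, 35.1, 37.2 and 31.4 RPKM in the same clones untreated. All 4 treated libraries lay below all 4 untreated ones, in a ratio of means of 0.333 (log2 fold change -1.47 ± 0.23 SE on log2(RPKM + 1), limma adjusted p = 0.0003153). Snhg8, host of Snora24, had 13.6, 17.4, 17.5 and 14.4 RPKM after deletion and 29.8, 25.6, 17.2 and 28.5 RPKM untreated. Clone 3 did not share the change, and its untreated library lies inside the range of the treated ones (-0.63 ± 0.16, limma adjusted p = 0.01267, lower in 3 of 4 clones). Gas5 had 21.4, 27.2, 17.9 and 32.8 RPKM after deletion and 43.7, 46.9, 26.0 and 50.3 RPKM untreated. It was lower in each of the 4 clones, but the groups overlap because untreated clone 3 was low (-0.72 ± 0.23, limma adjusted p = 0.04541). Gas5 lost its call when any 1 of 6 libraries was left out (treated clones 1, 2 or 3, untreated clones 1, 2 or 4), with log2 fold changes of -0.58 to -0.77, and also with a pseudocount of 0.1 or without a filter on low values.

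A model that compares each clone with itself also called Snhg5 (adjusted p = 0.00198) and Snhg6 (adjusted p = 0.03379) lower in Smc3-deleted cells, by limma, where it called 12.6% of all genes lower. Snhg5, a box C/D host, had 5.24, 4.17, 3.96 and 3.64 RPKM after deletion and 7.05, 4.90, 5.22 and 5.24 RPKM untreated, lower in 4 of 4 clones (log2 fold change -0.33 ± 0.16 SE, limma adjusted p = 0.2006 without the block). Snhg6 had 15.4, 10.9, 11.4 and 12.1 RPKM after deletion and 14.4, 17.0, 14.8 and 15.6 RPKM untreated. Snhg1, Snhg3 and Snhg7 had log2 fold changes of -0.11, -0.03 and -0.19 with SEs of 0.30 to 0.37, and they were lower in 2 of 4 clones each. Macrophage markers were also lower, with summed levels of 19.2 to 172 RPKM in Smc3-deleted libraries and 28.6 to 1106 RPKM in untreated ones. Their median log2 fold change was -1.49 and 0 of the 8 passed the test. Of the 10 fibroblast markers 1 fell, Col1a1. The 5 endothelial markers summed to 0.837 to 10.0 RPKM in Smc3-deleted and 10.6 to 20.6 RPKM in untreated libraries, with 1 of 4 tested lower (Flt1). Neural markers summed to 16.0 to 32.3 RPKM in Smc3-deleted and 6.86 to 13.8 RPKM in untreated libraries, with 1 of 2 tested higher (Tubb3), and neither pair of ranges overlapped. The part of these markers in the results for the hosts was not tested. In bulk samples, fewer cells of a type and less RNA per cell cannot be told apart.

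After loss of Wapl, 2 of the 8 hosts fell, Snhg8 and Snhg12, where 0.928% of all genes tested fell. The 8 log2 fold changes were again all below 0, with a median of -0.79 against -0.01 for all genes. With the trend on transcript length removed, that of Snhg7 was at 0. Snhg8 had 9.73 and 12.5 RPKM in Wapl-deleted clones 1 and 2, against 27.9 and 28.7 RPKM in the same clones untreated (ratio of means 0.393, log2 fold change -1.28 ± 0.23 SE, limma adjusted p = 0.005889). Snhg12 had 16.9 and 20.8 RPKM after deletion and 65.3 and 44.8 RPKM untreated (ratio 0.342, -1.48 ± 0.33, limma adjusted p = 0.01969). For both genes the 2 groups did not overlap. Both calls were lost when untreated clone 1, treated clone 1 or untreated clone 2 was left out, with log2 fold changes of -1.12 to -1.75. With the clone as a block, Snhg5 (adjusted p = 0.00064) and Gas5 (adjusted p = 0.007029) were also called lower by limma, as were 6.97% of all genes. Snhg5 was called without the block too once libraries were rescaled by their median of ratios (limma adjusted p = 0.04938). Snhg5 had 4.05 and 3.26 RPKM in Wapl-deleted cells and 7.97 and 6.37 RPKM untreated. Gas5 had 17.2 and 32.3 RPKM after deletion and 37.4 and 49.6 RPKM untreated. Snhg6 was low in every Wapl library, with 8.03 and 8.14 RPKM after deletion and 8.88 and 9.14 RPKM untreated (-0.14 ± 0.38). Macrophage markers summed to 479 to 1464 RPKM in Wapl-deleted libraries and to 1738 to 2475 RPKM in untreated ones (median log2 fold change -1.22, 0 of 8 called). Endothelial markers summed to 8.80 and 9.85 RPKM in Wapl-deleted libraries and to 13.0 and 13.8 RPKM in untreated ones, with 0 of 4 called. The part of both lists in the results for the hosts was not tested.

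With hydroxytamoxifen alone, none of the 8 hosts was called in Cre-ER cells. Limma called 0 of all 12604 genes there, and 41 had an unadjusted p under 0.05, none of them a host. That is fewer than this threshold would give with no change at all. The spread, pooled over all groups, may thus be too wide for Cre-ER cells, and the differences below use the same spread. Snhg12 had 44.5 and 47.4 RPKM with the drug and 48.8 and 42.1 RPKM without it (log2 fold change 0.02 ± 0.33). Snhg8 had 22.7 and 22.8 RPKM with the drug and 24.9 and 25.7 RPKM without it (-0.15 ± 0.23), and Gas5 24.3 and 20.4 RPKM against 21.1 and 22.0 RPKM (0.04 ± 0.33). The difference between the Smc3 change and the Cre-ER change was -1.49 ± 0.40 for Snhg12 (limma adjusted p = 0.08295) and did not pass for any of the 8 hosts, while 0.762% of all genes had a difference called lower. With the clone as a block, it passed for Snhg12 (adjusted p = 0.02829) and Gas5 (adjusted p = 0.03136) by limma, as for 4.31% of all genes in the lower direction. The Wapl change minus the Cre-ER change was -1.13 ± 0.33 for Snhg8 and -1.50 ± 0.46 for Snhg12 (limma adjusted p = 0.2814 and 0.3243), and 0.0317% of all genes were called lower. With the block it passed for 1 host, Snhg5 (-0.62, limma adjusted p = 0.03294, where 1.05% of all genes were called lower), and for 0 with the Cre-ER clone numbers crossed.

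**Figure D2:**
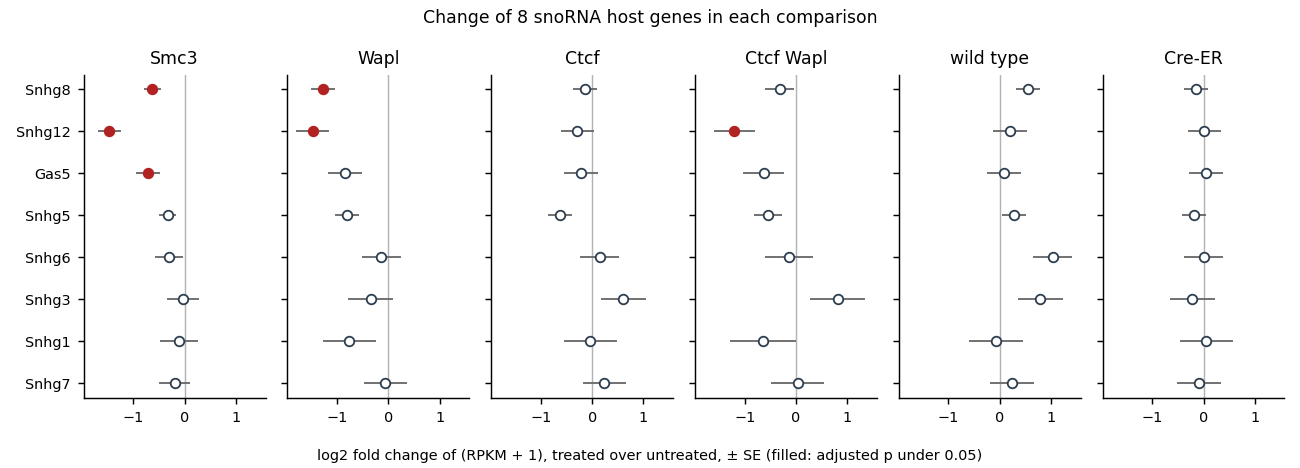
Log2 fold change of RPKM + 1, treated over untreated, of the 8 hosts tested (rows) in the 6 comparisons (panels), with bars of ± 1 SE from the limma model and filled points where the adjusted p was under 0.05. All 8 points lie below 0 for Smc3 and for Wapl, and Snhg12 is filled in the Smc3, Wapl and Ctcf Wapl panels.

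After loss of Ctcf, none of the 8 hosts passed the test, where 7.66% of all genes tested did. Limma gave an unadjusted p under 0.05 for 1 host, Snhg5, which had 2.45 and 3.52 RPKM in Ctcf-deleted clones 1 and 2 and 4.26 and 6.13 RPKM in the same clones untreated (-0.63 ± 0.23, adjusted p = 0.11). With the clone as a block Snhg5 was called lower (limma adjusted p = 0.000547), as were 9.35% of all genes. For Gas5, Snhg12 and Snhg6 the groups overlapped, and clone 2 was above clone 1 in both. Gas5 had 2.58 and 4.91 RPKM after deletion and 3.72 and 5.10 RPKM untreated, and Snhg12 had 13.2 and 25.6 RPKM after deletion and 16.2 and 31.7 RPKM untreated. Snhg6 had 20.9 and 53.9 RPKM after deletion and 17.2 and 53.0 RPKM untreated. Snhg3, a host of the U17 family of box H/ACA snoRNAs, had 1.23 and 6.36 RPKM after deletion and 0.953 and 2.61 RPKM untreated (0.61 ± 0.44). In wild-type cells, which control for the virus, Snhg6 and Snhg8 had higher values with it that did not pass. Snhg6 had 99.6 and 76.2 RPKM in wild-type cells with Adeno-Cre and 43.7 and 40.4 RPKM without it, in groups that did not overlap (1.04 ± 0.38, limma adjusted p = 0.1482). Snhg8 had 32.5 and 26.9 RPKM with the virus and 17.9 and 21.9 RPKM without it (0.55 ± 0.23, limma adjusted p = 0.2048). None of the 8 hosts passed there without the block (2 had an unadjusted p under 0.05), where 3.24% of all genes passed and 2.70% rose. With the block 3 were called higher by limma, Snhg6 (adjusted p = 0.001271), Snhg3 (0.02896) and Snhg5 (0.03671), where 15.8% of all genes were, and with each library's trend on transcript length removed as well, 0 were. That correction also turned the log2 fold changes of Snhg5, Snhg7, Snhg12 and Gas5 to -0.12, -0.25, -0.34 and -0.02 in wild-type cells. The Ctcf change minus the wild-type change passed for no host (1.46% of all genes did), and with the block for Snhg5 (limma adjusted p = 0.001889) and Snhg6 (0.02271), both lower in Ctcf-deleted cells relative to the wild-type change, as were 3.53% of all genes.

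The cells without Ctcf and Wapl have 1 treated library, so tests assume that it varies like the other groups. There 1 of the 8 hosts was called lower, Snhg12, where 5.34% of all genes tested were. Snhg12 had 15.0 RPKM in the 1 treated library and 36.8 and 34.9 RPKM in the 2 untreated ones (ratio of means 0.418, log2 fold change -1.20 ± 0.40 SE, limma adjusted p = 0.04877). The call was lost with the clone as a block (adjusted p = 0.06553), without a filter on low values and without either untreated library, at log2 fold changes of -1.17 to -1.24. The block, which compares clone 4 with itself, called Snhg5 (4.25 RPKM treated, 7.69 RPKM untreated, limma adjusted p = 0.002165) and Gas5 (25.0 RPKM treated, 45.8 RPKM untreated, adjusted p = 0.01902) lower, as it did 8.17% of all genes. Snhg8 was at 10.0 RPKM treated and at 12.8 and 12.7 RPKM untreated (-0.32 ± 0.28), and Snhg6 at 37.1 RPKM treated and at 32.6 and 50.6 RPKM untreated. Of the fibroblast markers, 3 of 10 fell in this library (Pdgfrb, Pdgfra and Col1a2). Endothelial markers summed to 6.02 RPKM in it and to 15.5 and 38.2 RPKM untreated (Flt1 lower), and neural markers to 110.9 RPKM in it and to 27.5 and 30.1 RPKM untreated (Tubb3 higher). In wild-type cells, neural markers also summed higher with Adeno-Cre, at 104.5 and 154.1 RPKM against 40.9 and 42.6 RPKM untreated (1 of 2 tested higher). In Ctcf-deleted cells they summed to 147.3 and 158.4 RPKM, against 17.45 and 23.5 RPKM untreated. The part of these markers in the results for the hosts was not tested. The change minus that of wild-type cells with Adeno-Cre passed for no host, where 1.72% of all genes were called lower. With the block it passed for Snhg5, Snhg6 and Gas5 (limma adjusted p = 0.002744, 0.004564 and 0.04583), all lower, as were 5.76% of all genes. A separate small table, normalized apart from the large one, holds 2 further libraries with the same labels as each other (clone 3, Adeno-Cre). In these, Snhg12 had 12.0 and 13.4 RPKM, Gas5 15.1 and 22.0 RPKM, Snhg8 15.6 and 10.4 RPKM, Snhg6 52.8 and 23.7 RPKM, and Snhg5 1.02 and 5.65 RPKM. Snhg1 had 0.19 and 1.57 RPKM, Snhg3 1.66 and 0.79 RPKM, Snhg7 1.42 and 1.39 RPKM, and Snhg11 0.32 and 0.02 RPKM. Their levels are set beside the large table as values only, with no test. This small table is named for serum stimulation, which the labels of neither library mention. The labels do not say whether these 2 libraries differ in treatment.

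Across the 27 libraries, the hosts did not vary as 1 group. On log2(RPKM + 1), Snhg12 correlated with Snhg5 at r = 0.77 and with Snhg8 at 0.76, and Snhg3 correlated with Snhg6 at 0.74. Gas5 stood apart, with r between -0.48 (Snhg6) and 0.28 (Snhg5). These points share genotypes, clones and treatments and are descriptions only. The 5 other genes whose profile was most like the mean of the hosts over the 27 libraries were 2410006H16Rik (r = 0.83), Fh1 (0.82), Prmt3 (0.78), Psmg4 (0.78) and Nol9 (0.77). Fh1 encodes fumarate hydratase and Prmt3 an arginine methyltransferase of ribosomal protein S2. Whether any of these 5 genes is itself a snoRNA host was not checked.

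Other genes of snoRNA biology were read in the same model. Listed genes were found by symbol, so a gene held under another symbol would be missed. Among the other noncoding snoRNA hosts, 3 of 12 listed were tested (Rian, Snhg9 and Snhg10) and 0 were called by limma in any comparison without the block. Snhg10 had 6.65 RPKM in wild-type cells with Adeno-Cre against 2.18 RPKM without it (log2 fold change 1.28, limma adjusted p = 0.05756), and with the block it was called higher there (adjusted p = 0.009957) and after loss of Ctcf (adjusted p = 0.03109). Of 39 protein-coding hosts tested, 2 fell after loss of Smc3, Rpl12 (2.14 against 6.81 RPKM, limma adjusted p = 9.522e-05) and Rpl4 (288 against 380 RPKM, limma adjusted p = 0.02511), which encode proteins of the large ribosomal subunit. None of the 39 passed after loss of Wapl. With the clone as a block, limma called 15 of the 39 lower and 1 higher after loss of Smc3, and 12 lower and 0 higher after loss of Wapl, beside 12.6% and 6.97% of all genes lower. Rcc1 fell after loss of Ctcf (3.25 against 6.47 RPKM, limma adjusted p = 0.00846) and of Ctcf and Wapl (3.39 against 6.75 RPKM, adjusted p = 0.02042). Rcc1, the exchange factor of Ran, adjoins Snhg3, which had a log2 fold change above 0 in both comparisons. Of 20 snoRNP and pseudouridine synthase proteins, 0 passed after loss of Smc3 or Wapl, and with the block, beside the same shares of all genes, 6 and 4 were called lower. Pih1d1 and Ruvbl2, assembly factors of snoRNPs, rose after loss of Ctcf, where 635 of all 12604 genes tested rose. Ruvbl2 and Rrp9 rose after loss of Ctcf and Wapl, a comparison with 1 treated library. Rrp9 also rose in wild-type cells with Adeno-Cre (log2 fold change 0.92, limma adjusted p = 0.003811), where Ruvbl2 had a log2 fold change of 0.49 (adjusted p = 0.05776). None of these changes differed from that of wild-type cells by the test (limma adjusted p = 0.7918 for Pih1d1 and 0.9998 for Ruvbl2 after loss of Ctcf, 0.8391 for Ruvbl2 and 0.9695 for Rrp9 after loss of both). Of 20 factors of nonsense-mediated decay, 1 rose after loss of Smc3 (Smg6, which cuts targets of the pathway, log2 fold change 0.49, limma adjusted p = 0.0066) and 0 passed after loss of Wapl or Ctcf. Beside that 1 factor, 1181 of all 12604 genes tested rose after loss of Smc3. Of 16 transcripts known as targets of decay, 1 fell after loss of Smc3 (Trib3) and 0 passed after loss of Wapl. Of 44 rows of small nucleolar RNAs tested, 2 fell after loss of Smc3 (Snora7a and Snord68), 0 passed after loss of Wapl or Ctcf, 1 fell after loss of Ctcf and Wapl (Snord52), and 1 rose with Adeno-Cre in wild-type cells (Snora16a, from Snhg12). Snora16a was near the floor, at 0 in 17 of the 27 libraries and at most at 1.56 RPKM. In that comparison 2.70% of all genes rose. The 21 genes that adjoin or overlap the hosts gave 14 tested. Slc3a2, next to Snhg1, fell after loss of Smc3 (64.0 against 92.2 RPKM, limma adjusted p = 0.0009383) and of Wapl (62.8 against 106 RPKM, adjusted p = 0.004553), while no gene that adjoins Snhg8 or Snhg12 was called in either.

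In nascent RNA the order of the hosts was different. GRO-seq maps RNA that engaged polymerases extend in isolated nuclei, isolated here through the bromouridine it takes up. The values were deposited as TPM in columns that sum to 200000 or, for DRB and washout, to 100000, so the last 2 were multiplied by 2.0. By a check of the DRB and washout columns, they are per length of the whole gene, introns and intronic snoRNAs included. The other columns were not checked and are taken to be the same. RPKM is per length of the listed transcript. For Snhg8 that is 784 bases, against a gene span of 785 bases, so its 2 lengths are nearly equal. Because each column sums to a set total, a loss of transcription common to all genes would not show. Their depth is unknown. Snhg8 was the most abundant host, at 5282 TPM in Adeno-Cre and 990.7 TPM in untreated cells, which ranked it 3 and 7 among 20282 rows. In the Adeno-Cre column Snhg8 held 2.64% of the column total. Gas5 had 636 TPM in Adeno-Cre and 268 TPM in untreated cells (ranks 32 and 43). In Adeno-Cre cells Snhg5 had 457 TPM, against 160.4 TPM in untreated cells, and Snhg1 had 284 TPM, against 132 TPM untreated. Snhg3 had 277 TPM with Adeno-Cre and 114 TPM untreated, Snhg12 224 TPM with Adeno-Cre and 87.9 TPM untreated, and Snhg6 153 TPM with Adeno-Cre and 76.2 TPM untreated. Snhg7 had 72.1 TPM with Adeno-Cre and 63.0 TPM untreated. Snhg11 had 6.94 TPM with Adeno-Cre and 5.24 TPM untreated, near the median of all rows in the untreated column (3.7 TPM). The wild-type column gave 1557 TPM for Snhg8, 502 TPM for Gas5, 328 TPM for Snhg3, 250.1 TPM for Snhg1, 223 TPM for Snhg5 and 163 TPM for Snhg6. It gave 133 TPM for Snhg12, 91.0 TPM for Snhg7 and 0.324 TPM for Snhg11.

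Set against polyadenylated RNA, the hosts with ample stable RNA took a larger share of nascent RNA. For each gene the GRO-seq share was divided by its RNA-seq share of the same rows, both at a total of 200000, with a pseudocount of 1 for log2 values and genes of at least 5 in either. A gene with little polyadenylated RNA enters only when its nascent value is high, so hosts are counted among genes of at least 5 in polyadenylated RNA. In Adeno-Cre cells the 3 hosts above that minimum (Gas5, Snhg12 and Snhg6) were all at least 2-fold higher in nascent RNA, where 5.87% of 5655 genes were. In untreated cells 4 of 4 (these and Snhg8) were, where 9.92% of 5574 genes were, and in the wild-type column 4 of 4, where 6.16% of 5798 genes were. All of these hosts span at most 5000 bases. Genes of that size, kept by either value, had median log2 ratios of 1.33 to 1.73, already past 2-fold. Their share at the minimum in polyadenylated RNA was not computed, so these counts do not set the hosts apart from short genes. The other hosts entered through their nascent value, and their ratios are descriptions. In Adeno-Cre cells Snhg8 stood at 5282 in nascent and 4.93 in polyadenylated RNA, a ratio of 1071, and at a percentile of 99.9. Snhg1 followed at 284 against 0.72 and Snhg5 at 457 against 2.09 (ratios of 392 and 219). The lowest log2 ratios were those of Snhg11 (2.65) and Snhg6 (3.00), at percentiles of 86.8 and 89.9. In untreated cells Snhg8 was at 990.7 against 6.66 (ratio 149) and Snhg1 at 132 against 1.52 (ratio 87.0). Snhg6, Gas5 and Snhg12 had the most polyadenylated RNA there (21.7, 20.7 and 18.7). Their ratios were 3.51, 12.9 and 4.70, at percentiles of 72.6, 93.7 and 78.7. In the wild-type column, set against the mean of 4 untreated wild-type and Cre-ER libraries, Snhg3 had the highest ratio (328 against 1.02, ratio 321) and Snhg8 stood at 1557 against 11.9 (ratio 131).

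Short genes as a class had more nascent than polyadenylated signal, among genes kept by either value: the median log2 ratio of those that span at most 5000 bases was 1.59 in Adeno-Cre, 1.73 in untreated and 1.33 in wild-type values. Of the 9 hosts 8 are of that size, from 785 bases (Snhg8) to 3939 bases (Gas5), and Snhg11 spans 10762 bases. Among short genes, Gas5 was at a percentile of 93.3 with Adeno-Cre, 76.9 in untreated cells and 93.1 in the wild-type column, and Snhg8 at 98.5 in untreated cells and 96.6 in the wild-type column. Snhg12 was at 88.1 with Adeno-Cre and at 54.1 in untreated cells, and Snhg6 at 68.3 with Adeno-Cre and at 50.4 in untreated cells, near the middle of that class. The Ctcf Wapl GRO-seq columns pool clones 1 and 2. The polyadenylated values are 1 library (clone 4) with Adeno-Cre, clones 3 and 4 untreated, and other clones for the wild-type column. The assays also count over different lengths (nearly the same for Snhg8), so the size of a ratio carries both.

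**Figure D3:**
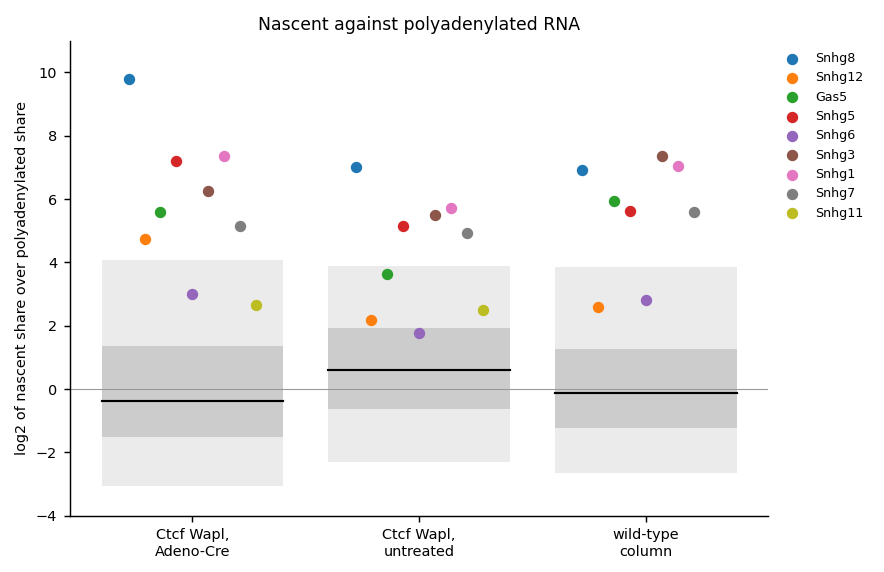
Log2 of a gene's share of nascent RNA over its share of polyadenylated RNA (vertical axis), for the hosts (coloured points) and all genes measured in both (black line, median; dark band, lower to upper quartile; light band, 5th to 95th percentile), in Ctcf Wapl floxed cells with Adeno-Cre, the same genotype untreated, and the wild-type column. Snhg8 is the top point with Adeno-Cre at 9.80 and lies at 7.02 in untreated cells, while Snhg6, Snhg12 and Snhg11 are the lowest points.

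The snoRNAs within the hosts have rows of their own in part. Of the 30 snoRNA genes within the hosts, 10 had a row in the RNA-seq table and 9 of these in the GRO-seq table. Snord99 of Snhg12 and Snora24 of Snhg8 were listed at 0 in all 27 polyadenylated libraries, Snord87 of Snhg6 in 25 and Snord47 of Gas5 in 24. Snord22 of Snhg1 was the highest by its median, at 2.39 RPKM. In nascent RNA, Snord99 had 169 TPM in Adeno-Cre and 384 TPM in untreated cells, and Snord47 had 125 TPM with Adeno-Cre and 244 TPM untreated. Snord87 had 104 TPM with Adeno-Cre and 131 TPM untreated, and Snord22 had 107 TPM with Adeno-Cre and 193 TPM untreated. Of these 9 rows, 2 were higher in the Adeno-Cre than in the untreated column, Snora17 (39.0 TPM with Adeno-Cre, 29.3 TPM untreated) and Snora16a (39.7 TPM with Adeno-Cre, 34.3 TPM untreated). Snora61 was listed at 0 with Adeno-Cre and at 15.1 TPM untreated. Their hosts, which are taken to count reads over the whole gene, were all higher with Adeno-Cre.

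With Adeno-Cre, 6 of the 9 hosts were at least 2-fold higher in nascent RNA than in untreated cells, where 5.90% of all genes and 21.2% of short genes were. The median log2 ratio of the hosts was 1.24 and that of all 9233 genes was -0.70. Snhg8 had the highest ratio, 5.33 (log2 2.41, percentile 99.5), followed by Snhg5 (2.85), Snhg12 (2.55), Snhg3 (2.44), Gas5 (2.37) and Snhg1 (2.15). Snhg6 was at 2.01, just under the limit on the log2 scale with its pseudocount, and Snhg11 and Snhg7 were at 1.32 and 1.14. In polyadenylated RNA of the same genotype Snhg12 was lower with Adeno-Cre, and Gas5, Snhg5 and Snhg8 had log2 fold changes of -0.63, -0.55 and -0.32. Each column is 1 pool of 2 libraries, so there is no replicate check. Wild-type GRO-seq with Adeno-Cre alone was not analysed here, so virus and deletion cannot be told apart.

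With DRB the shares of the 8 short hosts were 0.70 to 1.69 times those with Adeno-Cre alone. In the order untreated, Adeno-Cre, DRB, washout, Snhg8 had 990.7, 5282, 3683 and 3825 TPM at a total of 200000. Gas5 had 268, 636, 605 and 798 TPM, and Snhg12 had 87.9, 224, 246 and 329 TPM. Snhg5 had 160.4, 457, 774 and 917 TPM. Snhg1 had 132, 284, 424 and 419 TPM, and Snhg3 had 114, 277, 380 and 477 TPM. Snhg6 had 76.2, 153, 179 and 245 TPM, and Snhg7 had 63.0, 72.1, 77.1 and 77.5 TPM. Snhg8 was thus lower with DRB than with Adeno-Cre alone, Gas5 about level and the other short hosts higher. Snhg11 had 5.24, 6.94, 0.41 and 1.14 TPM, and reached the minimum of 5 TPM only in the first 2 columns. With DRB over Adeno-Cre, 0 of the other 8 hosts were at least 2-fold higher, where 21.3% of all genes were, and 0 were at least 2-fold lower, where 24.0% were.

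The ratio of DRB to Adeno-Cre ran with gene length across all genes. Its median log2 value was 0.58 for spans above 2000 and up to 5000 bases, and it fell with each longer class to -1.39 above 100000 bases. In genes up to 2000 bases it was 0.06, with a lower quartile of -2.55. Against short genes, the hosts did not stand high. The 8 short hosts had a median of 0.18 and the 1441 short genes 0.46, and 2 of the 8 (Snhg5 at 0.76 and Snhg1 at 0.58) were above that median. Gas5 (-0.07) and Snhg8 (-0.52) were at percentiles of 37.9 and 30.0 among short genes. Protein-coding hosts measured in both columns had a median of 0.83, with 17 of 39 at least 2-fold higher. After washout, 0 of 8 hosts moved 2-fold from DRB in either direction, where 21.1% of all genes were higher and 9.69% lower. Their log2 ratios ran from -0.02 (Snhg1) to 0.45 (Snhg6). Set against Adeno-Cre cells without DRB, 1 of these 8 hosts was at least 2-fold higher after washout (8.29% of all genes were), Snhg5 at a ratio of 2.01, and 0 were at least 2-fold lower (6.43% were). Snhg8 was at a ratio of 0.72.

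**Figure D4:**
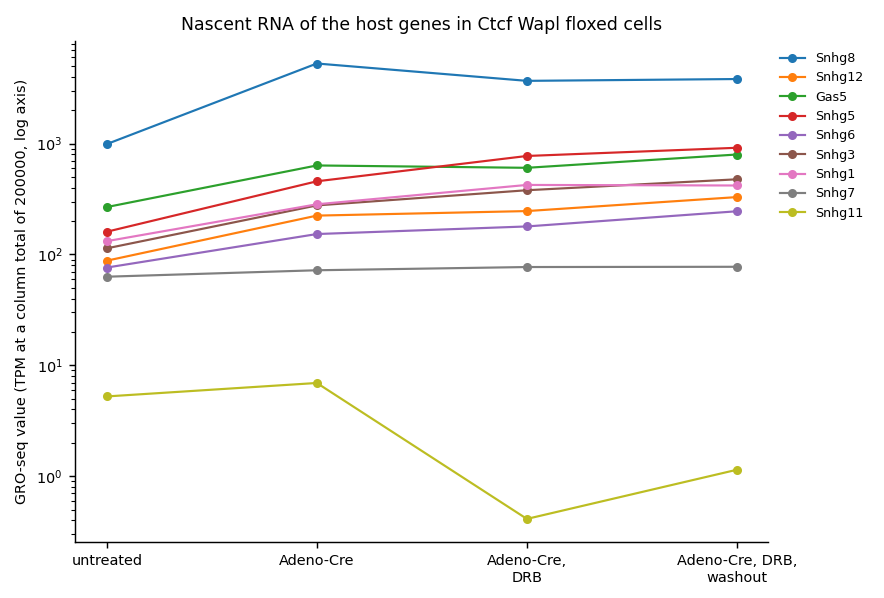
GRO-seq values of the 9 hosts (TPM at a column total of 200000, log axis) in Ctcf Wapl floxed cells, untreated, with Adeno-Cre, with Adeno-Cre and DRB for 3.5 h, and after 1 d without DRB; each point is 1 column and lines join the same gene. Snhg8 is the top line at 990.7 to 5282 TPM, and Snhg11 is the bottom line at 0.41 to 6.94 TPM.

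**Figure D5:**
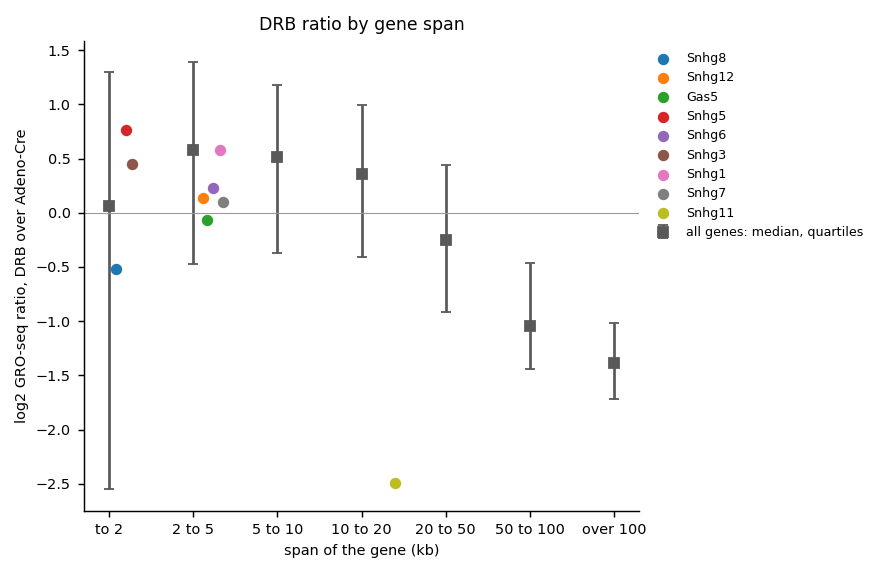
Log2 ratio of GRO-seq values with DRB over Adeno-Cre alone (vertical axis) by span of the gene in kilobases (horizontal classes), as the median and quartiles of all genes (grey squares and bars) and each host (coloured points, set right of its class). The median of all genes falls to -1.39 in the longest class, and the 8 short hosts lie between -0.52 and 0.76.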

How the data were processed

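The 9 host genes were given by name, and they and the gene lists were chosen with earlier results of these data known. The authors deposited RNA-seq as RPKM for 27 libraries, each scaled on its own, and 2 more in a separate table with 529 repeated rows, and GRO-seq as TPM, per the file headers. The submitters' processing notes list bedtools, HTSeq, MACS 1.4.2, Bowtie 0.12.5 and TopHat (1.4.1, 1.3.1) and name mm9 as the build, without roles. No per-sample column was left unused (0). RPKM steps gave whole reads, within 0.02 of a read, in 99.97% of 18155 genes, and a depth of 7724055 to 38630394 reads in genes per library. The ChIP-seq libraries of the series were not used here.

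The tests used limma 3.58.1 under R 4.3.3, with the trend and robust options, on log2(RPKM + 1), which understates changes of low genes, in 1 model with 1 mean per group over the 27 libraries and 15 residual degrees of freedom. Genes with at least 1 RPKM in at least 2 libraries were tested, two-sided, with Benjamini-Hochberg adjustment over all 12604 and a threshold of 0.05. Recovered reads served only to give depth; tests stayed on RPKM. The text names every member, its intronic snoRNAs and adjoining genes, from each list at most 4 called genes with the largest change, and the 5 genes most like the members' mean profile; Snhg10 was named after its values were seen. Replicates are clones. The p-values rest on 1 spread per gene, pooled over the clones of all groups and moderated across genes, not on the clones of 1 comparison alone. Treated and untreated libraries of a clone deviated together from their group means (r of 0.49 to 0.70 in Smc3, 0.68 in Ctcf, 0.47 in Wapl, 0.76 in wild-type and -0.20 in Cre-ER cells), so a block on the clone with 7 residual degrees of freedom was an alternative, with the Cre-ER numbers also crossed. Libraries of a group correlated at 0.975 to 0.995 and 0 pairs were identical. The fit was tested on simulated data. These gave every library the same depth and an assumed noise with no clone effect, and changed only genes with a mean of at least 2 RPKM. The real libraries differ in depth and clones share deviations, so the rates below are not the power for these hosts. It recovered 70% of 2-fold and 100% of 4-fold changes in the Smc3 comparison, and 20% and 95% in the Wapl comparison. With 2 libraries a group, a host that was not called may still have changed 2-fold.

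GRO-seq columns were brought to 1 total and compared as ratios with no test. In the DRB and washout columns, 58.8% and 59.4% of low values multiplied by the RefSeq gene span were whole multiples. With transcript length 2.0% and 2.1% were. The untreated, Adeno-Cre and wild-type columns were not checked, and the same length was assumed for them. The wild-type RPKM column equals the mean of 4 untreated libraries. Promoter windows came from RefSeq (GRCm38.p6). Depth, alternatives and their effects are given with the results.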

Additional observations from a re-analysis of the deposited data

Results flagged for a closer look

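Snhg5 in untreated Smc3 clones had 1 library far from the other 3, at 7.05 RPKM in clone 1 against 4.90 to 5.24 RPKM. Chance alone would single out about 1 in 20 groups, and 18 groups of 4 libraries were examined. Snhg11, which failed the filter on low values, moved in opposite ways in RPKM in every clone of Wapl-deleted and Cre-ER cells. The mean change was -0.024 RPKM in Wapl-deleted cells and 0.049 RPKM in Cre-ER cells with hydroxytamoxifen. In a limma fit without that filter, the log2 difference between these changes was -0.098 and was not called. These values rest on few reads. Untreated and treated libraries had 11 and 12 reads in Wapl clone 1 and 9 and 5 in clone 2. In Cre-ER cells they had 5 and 14 reads in clone 2 and 8 and 12 in clone 3.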

How the results depend on the processing

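Of the counts of hosts called, the replicate block raised that for Smc3 to 5, Wapl to 4, Ctcf to 1, Ctcf Wapl to 2, wild-type Adeno-Cre to 3, the Smc3 difference from Cre-ER to 2, the Wapl difference from Cre-ER to 1, the Ctcf difference from wild-type to 2 and the Ctcf Wapl difference to 3; it changed no other count. With the block and median-of-ratios rescaling they were 5, 4, 1, 2, 2, 2, 1, 2 and 3. With the block and the length trend removed they were 5, 4, 1, 3, 0, 2, 1, 1 and 3. These counts stand beside block shares of 1.05% to 15.8% of all genes in the direction of the calls. Crossing the Cre-ER clone numbers in the block gave 2 for the Smc3 difference and 0 for the Wapl difference. The length trend alone gave 1 host for Ctcf and 1 for the Smc3 difference from Cre-ER. Rescaling alone gave 3 for Wapl, with Snhg5. Without a filter the Ctcf Wapl count was 0. Leaving out 1 library gave 2 to 3 hosts for Smc3, 0 to 2 for Wapl, and 0 for Ctcf Wapl and each other comparison. The F test called 3 hosts under each alternative run. Rescaling lowered the median log2 fold change of all genes after loss of Ctcf and Wapl to -0.003, against 0.175 as deposited, and the genes called there were 681 higher and 924 lower, against 1324 and 673. The same rescaling gave 876 higher and 792 lower for Smc3 (against 1181 and 706), 522 and 419 for Ctcf (635 and 331) and 192 and 83 for wild-type cells (340 and 68).

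In nascent RNA, the hosts' median above that of all genes was 1.95 for Adeno-Cre over untreated, and 1.08 within short genes. For DRB over Adeno-Cre it was 0.10, and 0.06 with columns brought to the same median, -0.82 at a minimum of 25 TPM and -0.28 within short genes, so its sign depends on the genes compared. For washout over DRB it was 0.14, and 0.73 at the higher minimum, 0.20 with a pseudocount of 10 and 0.29 within short genes. For washout over Adeno-Cre it was 0.33, and 0.07 both at the higher minimum and within short genes. For nascent over polyadenylated RNA in untreated cells it was 4.33, and 6.05 at the higher minimum and 2.88 with a pseudocount of 10; it includes hosts that entered through their nascent value, and over the 4 with enough polyadenylated RNA it was 3.33. The minimum in polyadenylated RNA, the short genes, the block with a second correction and the crossed numbers were chosen after seeing the data. The causes of these shifts were not tested. With 1 or 2 libraries in a column, GRO-seq has no replicate check, and 2 clones a group limit the Wapl, Ctcf and control comparisons.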
